A study of Mus musculus with 19 samples.

Results

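The neurotrophins brain-derived neurotrophic factor (Bdnf) and neurotrophin 3 (Ntf3) and the receptor genes Ntrk2, Ntrk3, Ngfr and Sort1 were followed across the hippocampus of 19 mice. The genes were picked by name, and a probe belonged to a gene if its transcript accession was one of that gene's RefSeq accessions. The 6 genes were read by 12 of the 56605 probes of the array: 1 each for Bdnf, Ntf3 and Ngfr, 2 for Ntrk2, 3 for Sort1 and 4 for Ntrk3. All 12 probes were well above background on all 19 arrays and were among the 33450 probes tested.

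There were 3 groups of mice, each sampled at 8 months of age. Wild-type (WT) littermates given vehicle (DMSO) made up 6 arrays. APP/PS1 mice, a strain that deposits amyloid and whose 2 transgenes run from the mouse prion promoter, made up the other 2 groups: 7 arrays on vehicle and 6 arrays on urolithin A (UA), a gut-microbial metabolite of ellagitannins, at 200 mg/kg/day. Gavage ran from 6 to 8 months of age in all 3 groups, so WT mice had the vehicle too. Group sizes equalled the mouse numbers of the design, and each array was read as 1 mouse. The p-values measure only the spread between these samples, which may in part be technical. The APP/PS1 vehicle and WT groups differ by genotype, the UA and APP/PS1 vehicle groups by the compound, and the UA and WT groups by both.

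Neurotrophins are secreted as proproteins that proteases trim to the mature factors. Mature BDNF acts through TrkB, the product of Ntrk2, and neurotrophin 3 mainly through TrkC, the product of Ntrk3; both receptors are tyrosine kinases that signal through the MAP kinase, PI3 kinase and phospholipase C gamma routes. Proneurotrophins instead bind the p75 receptor (Ngfr) together with sortilin (Sort1). In the hippocampus BDNF is made by excitatory neurons, most of all in the mossy fibre system, and full-length TrkB is mainly neuronal, while the truncated form without a kinase domain is abundant in astrocytes.

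Bdnf has several alternative first exons with a promoter each, and transcription from some of them rises with neuronal activity through the cAMP response element (CRE). RefSeq (assembly GRCm38.p6) gives 12 curated Bdnf transcripts, and the promoter table matched 4 of the 6 genes with 11 start sites: 7 for Bdnf, 2 for Ntf3 and 1 each for Ngfr and Ntrk2. The 250 bases before each start were searched on both strands for the core CRE letters ACGTCA and their reverse complement TGACGT, which can overlap. Of the 11 windows 1 held a match, and 2125 of all 32851 windows did (6.47%). The matching window lies on chromosome 2, plus strand, at chr2:109692186-109692435, and is printed because it alone of the 11 holds those letters, which stand in capitals.
Bdnf start-site window: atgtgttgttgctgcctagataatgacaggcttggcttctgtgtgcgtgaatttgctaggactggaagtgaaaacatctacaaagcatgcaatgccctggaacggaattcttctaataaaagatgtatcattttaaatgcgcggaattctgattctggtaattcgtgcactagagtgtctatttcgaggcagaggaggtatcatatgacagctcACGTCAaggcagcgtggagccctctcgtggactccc
The promoter table held 25 windows for a list of 28 genes known to respond to BDNF or neuronal activity, but not for every gene. Egr1, Nptx2, Arc and Vgf had 0 windows. Of the 25 windows 11 held the same letters, the single windows of Fos and Npas4 among them, and that of Nr4a1 did not. A match describes letters only.

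Levels are on a log2 scale, as the dye-normalized Cy3 signal relative to the 75th percentile of the same array, so 0 is the brightness of the array's upper quartile. Levels of different probes are not comparable, since probes differ in how well they bind. That percentile ran from 663 to 1776 intensity units, and APP/PS1 vehicle array 3 was the dimmest. It was unequal between groups: 1166 to 1776 in WT, 663 to 1417 in APP/PS1 vehicle and 900 to 1393 in UA mice. The part of array brightness in the group differences was not tested. The arrays lay on 3 slides: the first held all 6 WT and 2 APP/PS1 vehicle arrays, the second 5 APP/PS1 vehicle and 3 UA arrays, and the third 3 UA arrays. The labels give no sex. By Xist and Y-linked transcripts, females numbered 1 in the WT group, 3 in the APP/PS1 vehicle group and 1 in the UA group. The prion gene Prnp, whose promoter drives the transgenes, was at 6.14 to 6.49 on WT arrays and at 7.77 to 8.45 on the 13 APP/PS1 arrays, with no overlap. All 5 dentate granule cell markers and all 7 pyramidal cell markers were measured, with mean levels per array of -0.47 to 0.77 and of 2.22 to 2.58. Markers of cortex (4 of 5), thalamus (5 of 5) and striatum (4 of 5) were measured too. Being measured does not tell hippocampus from neighbouring tissue, so the identity of the tissue was not tested.

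**Figure D1:**
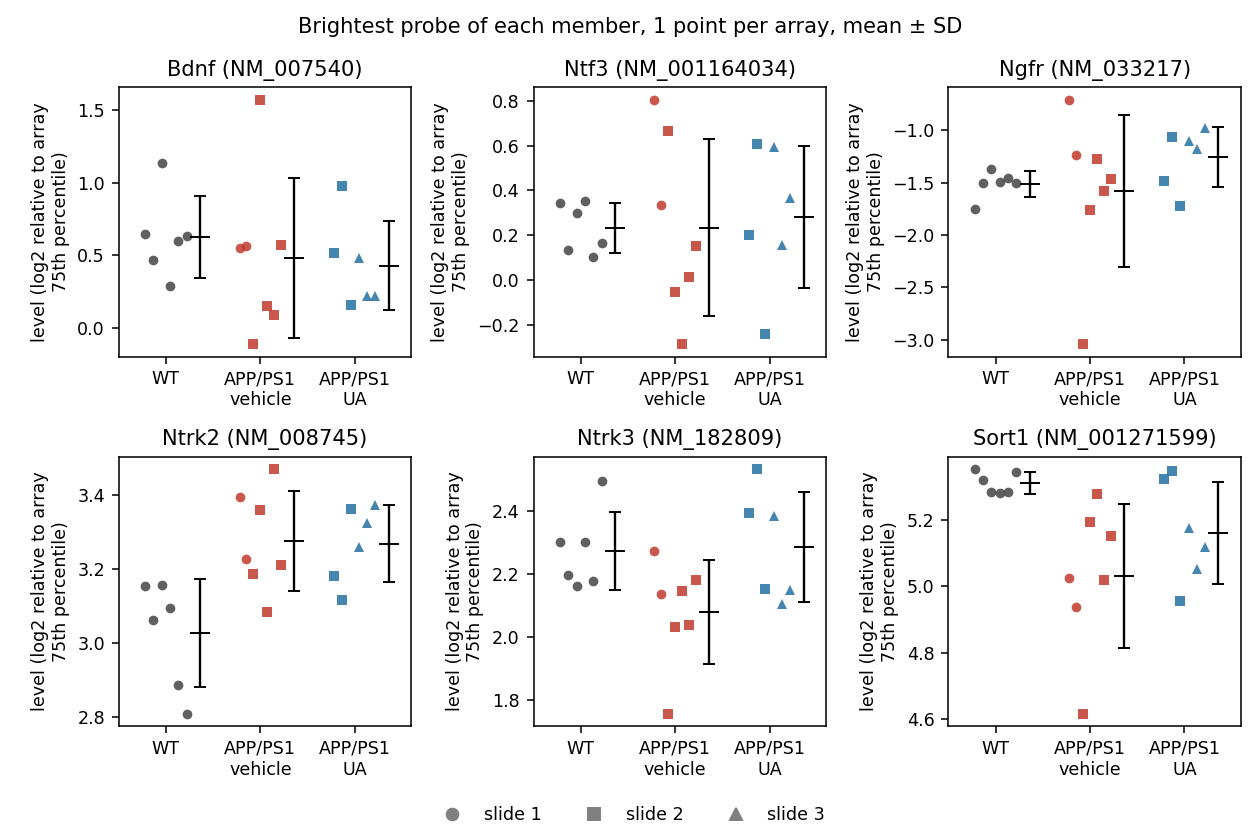
Level of the brightest probe of each of the 6 genes on every array (log2 relative to the array's 75th percentile), by group, with the group mean ± SD; marker shape gives the slide. Bdnf, Ntf3 and Ngfr spread widely within the APP/PS1 groups, while the Ntrk2 probe lay higher and the Sort1 probe lower in APP/PS1 vehicle than in WT mice.

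With limma and Benjamini-Hochberg adjustment over all 33450 probes, none of the 6 genes was called in any comparison. Between APP/PS1 vehicle and WT, 4.19% of all probes were called, and 0 of the 12 probes were. The called probes were higher for 2.35% and lower for 1.84% of all probes. Of the 12, 6 had an unadjusted p under 0.05 (2 higher, 4 lower), against 22.8% of all probes. Between UA and APP/PS1 vehicle, 0 of 33450 probes were called (0%), 14.7% had an unadjusted p under 0.05, and 1 of the 12 did. Between UA and WT, 0.114% of all probes were called, 8.76% had an unadjusted p under 0.05, and again 1 of the 12 did. Differences at the 12 probes ran from -0.32 to 0.33 for APP/PS1 vehicle minus WT, with a median of -0.10, from -0.18 to 0.33 for UA minus APP/PS1 vehicle, with a median of 0.07, and from -0.22 to 0.26 for UA minus WT, with a median of 0.02. Leaving out female APP/PS1 vehicle array 5, or sex as a covariate, raised the members called between APP/PS1 vehicle and WT from 0 to 2, Ntrk2 and Sort1 at their brightest probes. In that comparison the share of all probes called rose too, from 4.19% to 6.90% without that array and to 6.79% with the covariate.

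**Figure D2:**
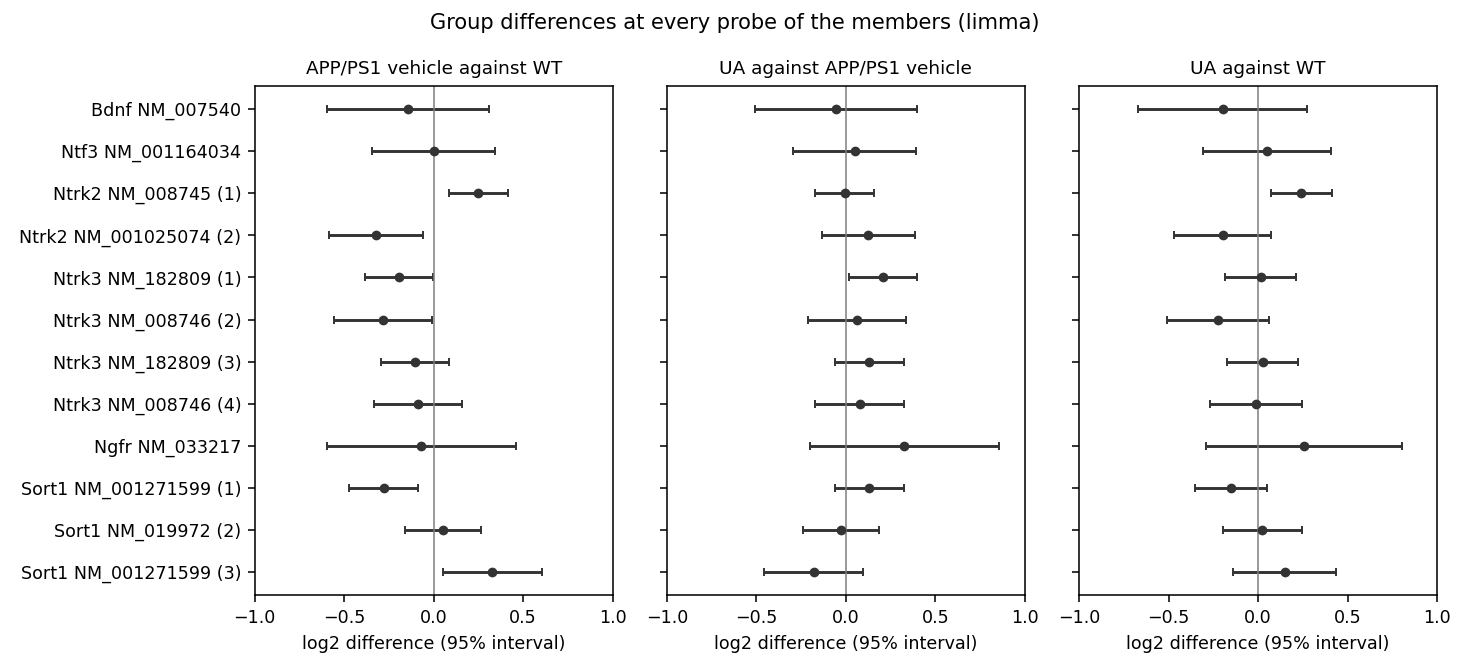
Group differences (log2) at each of the 12 probes with their 95% intervals from limma, for the 3 comparisons; probes of a gene are numbered from brightest to dimmest. Between APP/PS1 vehicle and WT the 2 Ntrk2 probes lay on opposite sides of 0, and the intervals of 6 probes excluded 0; 1 interval did so in each of the other comparisons.

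Of the ligands, Bdnf did not differ between groups beyond the spread of the mice. Its probe (NM_007540) had a lowest, median and highest level of 0.29, 0.61 and 1.14 in WT mice. In APP/PS1 vehicle mice these were -0.11, 0.55 and 1.57, and in UA mice 0.16, 0.35 and 0.97. The 3 groups overlapped throughout, and the APP/PS1 vehicle group held both the highest and the lowest mouse. The difference of APP/PS1 vehicle from WT was -0.14 (SE 0.22, 95% interval -0.60 to 0.31, limma adjusted p = 0.717), with 6 of 7 mice below the WT mean. UA minus APP/PS1 vehicle was -0.05 (interval -0.51 to 0.40, adjusted p = 0.932), and 0.13 without APP/PS1 vehicle array 4, the mouse at 1.57. UA minus WT was -0.20 (interval -0.67 to 0.27, adjusted p = 0.829).

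Bdnf varied more between mice of a group than most probes did. Its pooled SD within groups was 0.41, against a median of 0.23 over all probes tested, and lay at the 78.8th percentile. Within groups, Bdnf moved with some activity-regulated genes and not with others. Over the 19 arrays, which share dissection, labelling and slide, the deviations of Bdnf from the group means had r = 0.78 with those of Egr1, an immediate early transcription factor, and r = 0.79 with Nptx2, a secreted synaptic pentraxin. The same measure was -0.13 for Fos and -0.52 for Npas4, early transcription factors induced by calcium entry. Without the 2 arrays farthest out in the second gene, r was 0.88 for Egr1, 0.61 for Nptx2, -0.28 for Fos and -0.51 for Npas4. Among 14222 named genes well above background on all arrays, the nearest to Bdnf by this measure were Epha6 (an ephrin receptor, r = 0.92), Ppp3ca (the catalytic subunit of calcineurin, 0.89), Arhgap39 (0.89), Slc35f3 (0.89) and Cpm (a carboxypeptidase, 0.88); the median over all genes was -0.05.

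Ntf3, the ligand of TrkC, had the same mean in WT and APP/PS1 vehicle mice. Its probe (NM_001164034) was at 0.10, 0.23 and 0.35 (lowest, median, highest) in WT mice, -0.29, 0.15 and 0.81 in APP/PS1 vehicle mice and -0.24, 0.28 and 0.61 in UA mice. The WT mice lay inside the range of both other groups, which had an SD of 0.39 and 0.32 against 0.11 in WT. The difference of APP/PS1 vehicle from WT had an interval of -0.34 to 0.34 (adjusted p = 0.9999); on slide 1, where 2 APP/PS1 vehicle and 6 WT mice lay side by side, it was 0.34 (limma adjusted p = 0.245). The difference of UA from APP/PS1 vehicle was 0.05 (interval -0.30 to 0.39, adjusted p = 0.917) and UA minus WT 0.05 (interval -0.31 to 0.41, adjusted p = 0.960).

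Both ligands moved with the dentate granule cell markers (Prox1, Dsp, C1ql2, Calb1 and Tdo2) from mouse to mouse, and also with markers of other cells and of neighbouring tissue. The within-group deviations of the list's mean had r = 0.68 with Ntf3 and r = 0.63 with Bdnf over 19 arrays, and 0.58 and 0.55 without UA arrays 2 and 3, which lay farthest out in the markers. The list's mean ran from -0.05 to 0.52 in WT, from -0.43 to 0.60 in APP/PS1 vehicle and from -0.47 to 0.77 in UA mice. Bdnf had a higher r with the 8 oligodendrocyte markers, 0.73, and 0.63 without APP/PS1 vehicle array 3 and WT array 3. Their mean ran from 2.15 to 3.55 in WT, from 1.84 to 3.62 in APP/PS1 vehicle and from 1.98 to 3.39 in UA mice. Bdnf also had r = 0.52 with the choroid plexus and 0.51 with the 5 thalamus markers, and Ntf3 r = 0.53 with the thalamus markers. Without the 2 arrays farthest out in each list these were 0.48, 0.42 and 0.41. Bdnf and Ntf3 themselves had r = 0.04. The part of tissue composition in these levels was not tested. In bulk tissue, fewer cells of a type and less RNA per cell cannot be told apart.

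**Figure D3:**
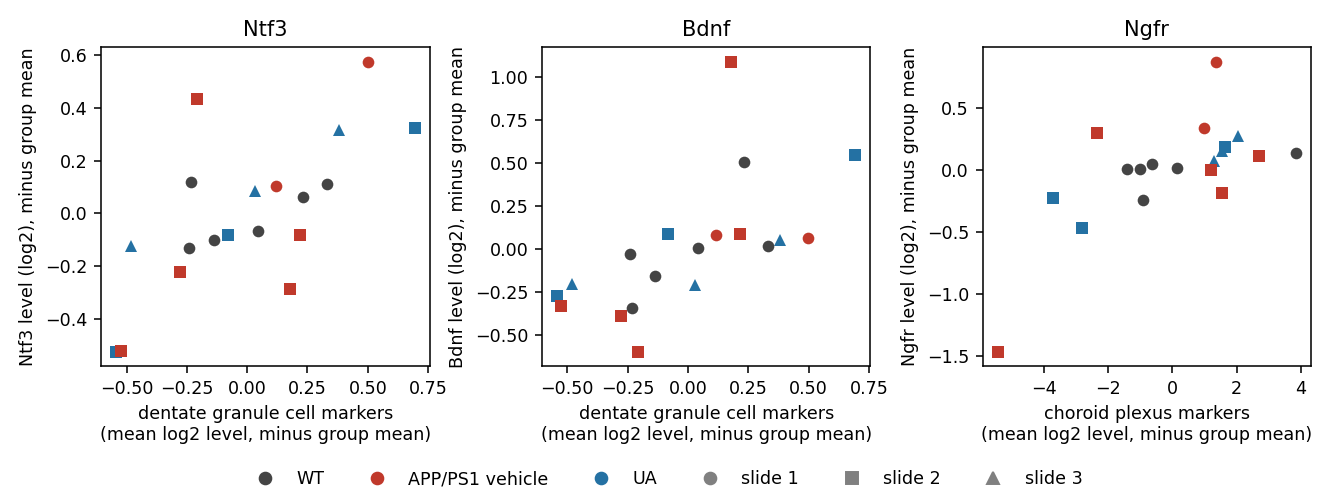
Deviation of Ntf3, Bdnf and Ngfr from the group mean (log2, y) against the deviation of the mean level of dentate granule cell or choroid plexus markers (log2, x), 1 point per array; colour gives the group and shape the slide. Ntf3 and Bdnf rise with the dentate markers (r = 0.68 and 0.63), and the slope of Ngfr on the choroid markers rests in good part on APP/PS1 vehicle array 3.

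Ntf5 (neurotrophin 4/5, a second TrkB ligand) was well above background on 14 of 19 arrays. It passed in none of the 3 comparisons by limma, and had an unadjusted p under 0.05 in 0 of them.

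The means of the 2 Ntrk2 probes differed in opposite directions between APP/PS1 vehicle and WT mice, though neither probe passed the test. One probe is annotated to NM_008745, the transcript of truncated TrkB, which lacks the kinase domain; the other to NM_001025074, the transcript of full-length TrkB with the kinase. The files do not say where on a transcript a probe lies or which other Ntrk2 transcripts it binds, so the probes are named here by their accessions.

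The probe for the truncated transcript was higher in APP/PS1 mice. Its lowest, median and highest levels were 2.81, 3.08 and 3.16 in WT mice. They were 3.09, 3.23 and 3.47 in APP/PS1 vehicle mice, and 3.12, 3.29 and 3.37 in UA mice. All 7 APP/PS1 vehicle and all 6 UA mice lay above the WT mean of 3.03 ± 0.15 (SD, n = 6), although the lowest of each group lay below the highest WT mouse. APP/PS1 vehicle minus WT was 0.25 (SE 0.079, a 1.19-fold difference, interval 0.08 to 0.41), with an unadjusted p of 0.00525 and a limma adjusted p of 0.0751, which did not pass. With sex as a covariate the difference was 0.28 and passed (limma adjusted p = 0.0430). It also passed with quantile normalization (0.29, adjusted p = 0.0485), without APP/PS1 vehicle array 5 (0.28, adjusted p = 0.0413) and without WT array 3 (0.28, adjusted p = 0.0499). It passed under no other alternative, where its limma adjusted p reached 0.275, and 0.186 on leaving out an array. UA minus APP/PS1 vehicle was -0.01 (interval -0.17 to 0.16, adjusted p = 0.978), and UA minus WT 0.24 (SE 0.082, unadjusted p = 0.00817 and limma adjusted p = 0.415).

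The probe for the full-length transcript was lower in most APP/PS1 vehicle mice. It was at 2.28, 2.56 and 2.64 (lowest, median, highest) in WT, at 1.72, 2.17 and 2.69 in APP/PS1 vehicle and at 2.02, 2.40 and 2.55 in UA mice. Of the 7 APP/PS1 vehicle mice 6 lay below the WT mean of 2.52, and the exception, array 5, was the highest of all 19. The difference of APP/PS1 vehicle from WT was -0.32 (SE 0.12, interval -0.58 to -0.06, limma adjusted p = 0.135), and -0.40 without array 5 (limma adjusted p = 0.0377). Under the alternatives that kept every array or took a subset by slide or sex, it did not pass (limma adjusted p 0.0775 to 0.385). The UA mice stood 0.13 above the APP/PS1 vehicle mean (interval -0.14 to 0.39, adjusted p = 0.655), and UA minus WT was -0.20 (interval -0.47 to 0.07, adjusted p = 0.679).

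Within each array the gap between the probes, truncated minus full-length, was wider in APP/PS1 mice. This difference does not depend on the percentile an array is scaled to. It averaged 0.50 ± 0.23 (SD, n = 6) in WT mice, 1.08 ± 0.35 (n = 7) in APP/PS1 vehicle and 0.94 ± 0.28 (n = 6) in UA mice. WT mice ranged from 0.21 to 0.87, APP/PS1 vehicle mice from 0.40 to 1.46 and UA mice from 0.64 to 1.30. Of the APP/PS1 vehicle mice 6 of 7 were above the highest WT mouse, and array 5 at 0.40 was the exception. The gap was 0.57 wider in APP/PS1 vehicle than in WT mice (exact permutation test, 2-sided, p = 0.00874, adjusted over the 3 comparisons 0.0227) and 0.44 wider in UA than in WT mice (exact permutation p = 0.0152, adjusted 0.0227). Adjusted over all 30 pair tests of the 3 genes with several probes, the values used for Ntrk3 and Sort1, these were 0.0874 and 0.114, and neither passed. Between UA and APP/PS1 vehicle the gap differed by -0.13 (exact permutation p = 0.466). The smallest p these tests can give is 0.000583 for 7 against 6 mice and 0.00216 for 6 against 6.

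The same gap did not pass either when set among all genes with several probes, except with sex as a covariate for APP/PS1 vehicle against WT (0.65, limma adjusted p = 0.0423). Of 7485 within-gene probe differences, limma called 0.454% between APP/PS1 vehicle and WT, and 14.3% had an unadjusted p under 0.05. The Ntrk2 gap had a limma adjusted p of 0.105 there. For UA against APP/PS1 vehicle limma called 0.0668% of these differences (11.1% with an unadjusted p under 0.05), and the Ntrk2 gap had an adjusted p of 0.780. For UA against WT it called 0.0802% (7.70% with an unadjusted p under 0.05), and the Ntrk2 gap had an adjusted p of 0.576. On slide 1 the gap was 1.10 in the 2 APP/PS1 vehicle mice and 0.50 in the 6 WT mice. On slide 2 it was 1.07 in 5 APP/PS1 vehicle mice and 0.72 in 3 UA mice, and on slide 3 it was 1.17 in 3 UA mice. With slide as a block, UA minus WT was 0.25 and no longer passed (limma p over within-gene differences, adjusted over the 3 comparisons, 0.402); these groups share no slide and meet in that fit only through APP/PS1 vehicle arrays. Without WT array 5 or WT array 6 neither comparison with WT passed (adjusted p = 0.0519 and 0.0552).

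**Figure D4:**
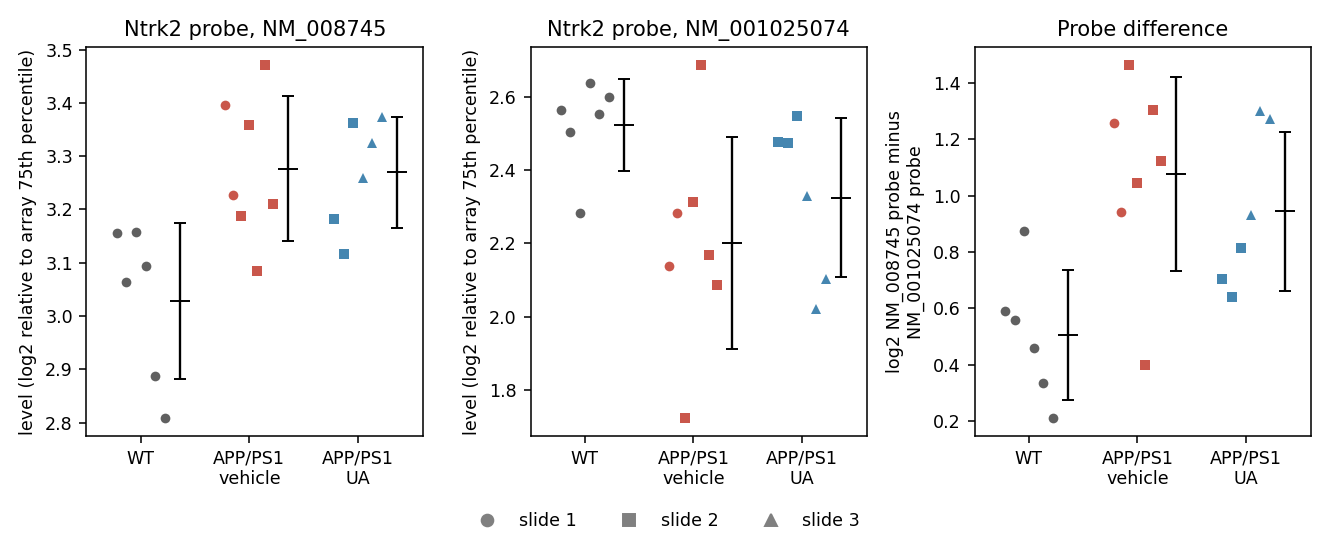
Level of the 2 Ntrk2 probes (log2 relative to the array's 75th percentile) and, on the right, their difference within each array (log2), by group with mean ± SD; marker shape gives the slide. The difference averages 0.50 in WT, 1.08 in APP/PS1 vehicle and 0.94 in UA mice, with APP/PS1 vehicle array 5 at 0.40 inside the WT range.

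Beside these probes, astrocyte markers stood higher in both APP/PS1 groups than in WT, while the neuron marker ranges overlapped. The mean of all 9 astrocyte markers, Aqp4, Slc1a2 and Gfap among them, was 2.88 to 3.15 on WT, 3.19 to 3.35 on APP/PS1 vehicle and 3.19 to 3.36 on UA arrays, with no overlap between WT and either APP/PS1 group. All 8 neuron markers averaged 5.41 to 5.82 on WT, 5.11 to 5.56 on APP/PS1 vehicle and 5.36 to 5.67 on UA arrays. The marker means were not tested. Within groups the truncated-transcript probe had r = 0.43 with the astrocyte markers (19 arrays). Its gap to the other probe had r = 0.06 with them and r = -0.41 with the neuron markers. For this gap r was -0.50 with oligodendrocyte precursor, -0.45 with pyramidal cell, -0.42 with microglia and 0.44 with striatum markers. The part of cell composition in the Ntrk2 differences was not tested. The 2 Ntrk2 probes had r = -0.31 with each other. Of the named genes, Epha2 (an ephrin receptor, r = 0.80), Fgf1 (a fibroblast growth factor, 0.79), Plxnb1 (a semaphorin receptor, 0.76), Specc1l (0.75) and Acadl (a mitochondrial acyl-CoA dehydrogenase, 0.75) were nearest to the truncated-transcript probe. The full-length probe had r = 0.69 with Vgf, a neuropeptide precursor induced by BDNF, and 0.85 without the 2 arrays farthest out in Vgf. Other activity-regulated genes differed: r was 0.50 with Homer1, 0.40 with Nptx2, 0.15 with Egr1 and 0.01 with Npas4. It was -0.13 with Junb, -0.14 with Nr4a1, -0.24 with Arc and -0.29 with Fos.

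Ntrk3 encodes TrkC, the receptor of neurotrophin 3, and was read by 4 probes. The brightest, annotated to NM_182809, a truncated form without the kinase, was at 2.16, 2.25 and 2.49 (lowest, median, highest) in WT mice. It was at 1.76, 2.14 and 2.27 in APP/PS1 vehicle and at 2.10, 2.27 and 2.53 in UA mice. APP/PS1 vehicle mice lay lowest, and UA mice covered the WT range. APP/PS1 vehicle minus WT was -0.19 (SE 0.091, limma adjusted p = 0.215), with 6 of 7 mice below the WT mean. UA minus APP/PS1 vehicle was 0.21 (SE 0.091, interval 0.02 to 0.40, unadjusted p = 0.0355 and limma adjusted p = 0.303), with 6 of 6 mice above the APP/PS1 vehicle mean; this was the single one of the 12 probes with an unadjusted p under 0.05 in that comparison. UA minus WT was 0.01 (interval -0.18 to 0.21).

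The remaining Ntrk3 probes did not pass either. The full-length, kinase-bearing transcript NM_008746 had a bright probe at a mean of 2.18 in WT, 1.89 in APP/PS1 vehicle and 1.95 in UA mice. All 7 APP/PS1 vehicle mice lay below the WT mean there (difference -0.29, SE 0.13, limma adjusted p = 0.203). A second probe of NM_182809 was at 0.96, 0.86 and 0.99 in the same order, and a dim second probe of NM_008746 at -2.63, -2.71 and -2.64. All 4 probes were lower in APP/PS1 vehicle than in WT mice on average, and none passed. Both NM_182809 probes moved together within groups (r = 0.92 over 19 arrays). The gap between the brightest truncated and full-length probes, tested as for Ntrk2, was 0.09 wider in APP/PS1 vehicle than in WT (exact permutation p = 0.445) and 0.24 wider in UA than in WT (exact permutation p = 0.0563). Neither passed after adjustment over the 30 pair tests of the 3 genes with several probes (adjusted 0.607 and 0.188).

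Ngfr encodes p75, the receptor that proneurotrophins engage. Its probe (NM_033217) was at -1.75, -1.50 and -1.37 (lowest, median, highest) in WT mice, at -3.05, -1.47 and -0.71 in APP/PS1 vehicle and at -1.73, -1.14 and -0.98 in UA mice. The APP/PS1 vehicle group held both extremes, arrays 3 and 1, and the groups overlapped. APP/PS1 vehicle minus WT was -0.07 (SE 0.25, interval -0.60 to 0.46, limma adjusted p = 0.892), UA minus APP/PS1 vehicle 0.33 (interval -0.20 to 0.85, adjusted p = 0.554) and UA minus WT 0.26 (interval -0.29 to 0.81, adjusted p = 0.799). On slide 1 alone, APP/PS1 vehicle minus WT was 0.54 (2 mice against 6, unadjusted p = 0.00763, limma adjusted p = 0.164), and without APP/PS1 vehicle array 3 it was 0.18 over all slides.

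Of the marker lists for tissue next to the hippocampus, choroid plexus moved most with Ngfr over all 19 arrays. The mean of all 10 choroid plexus markers, Ttr and Folr1 among them, ran from -3.92 to 4.23 over APP/PS1 vehicle mice, from -1.68 to 3.61 over WT and from -2.20 to 3.55 over UA mice. Its within-group deviations had r = 0.67 with those of Ngfr over 19 arrays, and 0.38 without APP/PS1 vehicle array 3 and UA array 1. The endothelial and mural markers had r = 0.66, and 0.52 without their 2 farthest arrays. Over 19 arrays r was 0.04 for meninges and fibroblast, -0.19 for cortex, 0.31 for thalamus and -0.37 for striatum markers. It was 0.61 for oligodendrocyte markers, -0.47 for neuron markers and 0.54 for the array's 75th percentile. The share of choroid plexus or vessel in the Ngfr level was not tested.

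Sort1 encodes sortilin, a sorting receptor of the Vps10p family that pairs with p75 and also routes BDNF within the cell. Its brightest probe (NM_001271599) was at 5.28, 5.30 and 5.35 (lowest, median, highest) in WT mice, at 4.61, 5.03 and 5.28 in APP/PS1 vehicle and at 4.95, 5.15 and 5.35 in UA mice. Every APP/PS1 vehicle mouse lay below every WT mouse, which held for 0.765% of all probes in that direction; the highest APP/PS1 vehicle mouse and the lowest WT mouse were 5.28 each to 2 decimals. This was 1 of the 12 probes without overlap in that comparison, against 2.10% of all probes in either direction. APP/PS1 vehicle minus WT was -0.28 (SE 0.092, a 1.21-fold difference, limma adjusted p = 0.0864), which did not pass. It passed with sex as a covariate (-0.32, limma adjusted p = 0.0385) and without APP/PS1 vehicle array 5 (-0.32, adjusted p = 0.0429). It passed under no other alternative, where its limma adjusted p reached 0.281, and 0.167 on leaving out an array. UA minus APP/PS1 vehicle was 0.13 (interval -0.06 to 0.32, adjusted p = 0.519) and UA minus WT -0.15 (interval -0.35 to 0.05, adjusted p = 0.674).

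The 3 Sort1 probes did not run together. The dimmest, annotated to the same transcript, was at a mean of -2.76 in WT, -2.43 in APP/PS1 vehicle and -2.61 in UA mice. APP/PS1 vehicle minus WT was 0.33 there (SE 0.13, limma adjusted p = 0.152), with 7 of 7 mice above the WT mean, opposite to the brightest probe. The probe of NM_019972 was at 0.05, 0.10 and 0.07 in the same order. The gap of the brightest to the dimmest probe was 0.61 narrower in APP/PS1 vehicle than in WT mice (a difference of -0.61, exact permutation p = 0.00874), and that to the NM_019972 probe differed by -0.33 (exact permutation p = 0.00758); both had 0.0874 after adjustment over the 30 pair tests. Array brightness moved with the brightest probe: within groups r with the array's 75th percentile was 0.64, and 0.24 without APP/PS1 vehicle arrays 3 and 5. For the dimmest probe this r was -0.53. Its signal before scaling to that percentile ran only from 155 to 252 intensity units over all arrays. The part of array brightness in the Sort1 differences and gaps was not tested. The brightest Sort1 and Ntrk3 probes had r = 0.70, and 0.47 without APP/PS1 vehicle array 3 and UA array 2.

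In the lists of the surrounding pathway, 7 genes passed in APP/PS1 vehicle against WT, each at its brightest probe. Of all 25599 genes, 4.55% passed at theirs, a target without a symbol counting as a gene of its own. Of 11 measured receptor and co-receptor genes 1 fell: Sorcs3, a sortilin relative, by 0.45 on the log2 scale (SE 0.12, limma adjusted p = 0.0446). Of the 11, 10 lay below 0, with a median difference of -0.19 against 0.01 over all genes. Of 12 measured p75 signalling genes 3 fell and 0 rose: Maged1, an adaptor that binds p75, by 0.36 (SE 0.079, adjusted p = 0.0184), and the JNK kinases Mapk9, by 0.27 (SE 0.063, adjusted p = 0.0217), and Mapk10, by 0.34 (SE 0.088, adjusted p = 0.0395). The list's median was -0.16.

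Of 46 Trk signalling genes 1 rose and 0 fell. Plcg2, a phospholipase C gamma that microglia also express, was 0.38 higher (SE 0.066, limma adjusted p = 0.00343, 7 of 7 mice above the WT mean), beside a microglia marker mean of 1.42 to 1.68 on WT and 2.14 to 2.38 on APP/PS1 vehicle arrays. The list's median was -0.09. Of 17 other neurotrophic factors and receptors 1 rose: Igf1, insulin-like growth factor 1, by 0.80 (SE 0.14, adjusted p = 0.00364). Of 28 genes known to respond to BDNF or activity 1 fell: Vgf, by 0.50 (SE 0.14, adjusted p = 0.0498), with a list median of -0.21. Of 11 proneurotrophin processing genes 0 passed by limma and 4 had an unadjusted p under 0.05, all lower; the prohormone trimming enzyme Cpe was nearest, at -0.25 (SE 0.071, adjusted p = 0.0559), and the matrix protease Mmp9 next, at -0.70 (adjusted p = 0.115).

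With slide as a block none of these 7 genes passed, with adjusted p from 0.112 to 0.224, though each difference kept its sign. Without the dim APP/PS1 vehicle array 3, Plcg2, Igf1, Maged1, Mapk9 and Mapk10 passed, while Sorcs3 (adjusted p = 0.0552) and Vgf (adjusted p = 0.0669) did not.

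UA against APP/PS1 vehicle gave 0 passing genes in all 7 lists by limma, as did UA against WT. The activity-responsive genes held 8 genes with an unadjusted p under 0.05 in UA against APP/PS1 vehicle and 14 in UA against WT, each of them lower in UA mice, of 28 genes; over all probes 14.7% and 8.76% had such a p in either direction. The list medians were -0.18 and -0.28, against -0.01 over all genes in both comparisons. The lowest p against APP/PS1 vehicle belonged to Npas4 at -1.06 (SE 0.32, limma adjusted p = 0.176) and Arc, a synaptic immediate early gene, at -0.90 (SE 0.29, adjusted p = 0.199). Against WT they belonged to Fos at -1.45 (SE 0.34, adjusted p = 0.137) and Nr4a1, a nuclear receptor, at -1.01 (SE 0.29, adjusted p = 0.296). The 2 comparisons share the UA arrays. Beside them, Bdnf differed by -0.05 and -0.20, as given above. Among the p75 signalling genes, Mapk9 was 0.18 (adjusted p = 0.218) and Maged1 0.22 (adjusted p = 0.228) higher in UA than in APP/PS1 vehicle mice, with 6 of 6 mice above that group's mean for each. Camk4, a kinase that phosphorylates CREB, was 0.27 higher (adjusted p = 0.260), Camk2a 0.36 lower (difference -0.36, adjusted p = 0.229), Pcsk5 0.40 higher (adjusted p = 0.239) and Pcsk1, a proprotein convertase, 0.72 higher (adjusted p = 0.311), none of which passed.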

How the data were processed

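Hippocampal RNA of 19 mice was hybridised to Agilent mouse arrays, 1 array per sample; per the labels, 200 ng of total RNA went into Cy3 labelling. Per the file headers, Agilent Feature Extraction 12.0.3.1 with a protocol for 2-colour arrays made the deposited intensity values: the processed green intensity had its background subtracted and was then normalized between dyes, not between arrays. The red sample is not described in the sources used here. The authors' deposited value table holds a score, found here to equal the centred and SD-scaled log10 green intensity of each array to within 0.005, with column medians from -0.28 to -0.17. The deposited files also carry flags (well above background, non-uniform, saturated) for each spot.

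Here 3671 control spots and non-uniform spots were left out of 62976 spots per array, spots of a probe were averaged, and log2 of the processed signal minus the array's 75th percentile was used. A probe was tested if 6 or more arrays, as many as the smallest group has, showed it well above background (33450 of 56605). Symbols came from a list of RefSeq genes for GRCm38.p6 (32994 probes with a symbol, 23611 without). One limma fit (lmFit, eBayes; limma 3.58.1, R 4.3.3) over all arrays gave the 3 comparisons, 2-sided, Benjamini-Hochberg adjusted over all probes, with 0.05 as threshold; a gene was called at its brightest probe. Differences between 2 probes of a gene were compared by exact permutation tests over arrays (scipy 1.17.1). On simulated data with the same 33450 probes, limma recovered 18%, 6.0% and 18% of probes changed 1.25-fold, about the largest difference of the 12 probes, for APP/PS1 vehicle against WT, UA against APP/PS1 vehicle and UA against WT. It recovered 44%, 42% and 36% of those changed 1.5-fold. The simulation changed far fewer probes than were called between APP/PS1 vehicle and WT, and few at each fold. Its noise was independent between probes. These shares therefore do not give the power of the tests in these data. Precision is limited by the number of arrays.

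The 6 genes, the gene lists and the tests were chosen with earlier results of these data known. Text names all probes of the 6 genes, Prnp and, per list and comparison, up to 4 passing genes by p, or the 2 of smallest p where none passed; for Bdnf and Ntrk2 it adds the 5 nearest genes by correlation of deviations from group means. Plcg2 and microglia, Fos, Egr1 and Nptx2 beside Bdnf, and Vgf beside Ntrk2 were singled out after their values were seen. Alternatives covered background, normalization, filter, slide, sex, replicate block and leaving out each array. The file's mean signal column was not used: normexp (offset 50) ran on the median signal.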

Additional observations from a re-analysis of the deposited data

Results flagged for a closer look

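Of 39 groups of arrays tested (12 probes and the Ntrk2 gap in 3 groups), 5 held an array that stood apart by Dixon's test; chance alone gives about 1 in 20. For Bdnf, APP/PS1 vehicle array 4 was at 1.57 and the next at 0.57. For the full-length Ntrk2 probe, WT array 3 was at 2.28 and the next at 2.50. For the dim Ntrk3 probe of NM_008746, APP/PS1 vehicle array 3 was at -3.16 and the next at -2.74. For Ngfr, WT array 1 was at -1.75 and the next at -1.50. For the Sort1 probe of NM_019972, UA array 3 was at 0.55 and the next at 0.08. Leaving each of these arrays out changed 1 call among the 6 genes: without WT array 3 the brightest Ntrk2 probe passed between APP/PS1 vehicle and WT (limma adjusted p = 0.0499). Without that array 7.87% of all probes passed in that comparison, against 4.19% with it.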

How the results depend on the processing

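Of the 0 members called between APP/PS1 vehicle and WT, 1 was called with quantile normalization, 2 with sex as a covariate and 0 to 2 on leaving out an array (2 without APP/PS1 vehicle array 5, 1 without WT array 3). Of all probes in that comparison, 4.41% were called with quantile normalization and 6.79% with sex as a covariate. The share was 6.90% without APP/PS1 vehicle array 5 and 7.87% without WT array 3, against 4.19% in the reported setting. No member was called in the other comparisons under any setting run. The Ntrk2 gap ran from 0.51 to 0.69 for APP/PS1 vehicle minus WT and from 0.37 to 0.51 for UA minus WT on leaving out an array, with 0 or 1 such test passing (0 without WT array 5 or 6). By limma over all within-gene differences these gaps of 0.57 and 0.44 gave 0 passes, and with slide as a block UA minus WT was 0.25 with 0 passes; adjusted over the 30 pair tests, neither gap passed (0.0874 and 0.114). Over probes, comparisons and settings together, a difference changed sign 69 times, for none that had passed, and the cause was not tested.

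Between APP/PS1 vehicle and WT, Ntf3 (reported at 0 to 2 decimals) was 0.021 with the percentile over probes detected on all arrays, 0.014 with quantile normalization, 0.34 with slide as a block and on slide 1, 0.075 with sex as a covariate, 0.19 in males, and -0.096 to 0.087 on leaving out an array. Ngfr was 0.13 with normexp, 0.54 with slide as a block and on slide 1, and -0.21 to 0.18 on leaving out an array. Bdnf was 0.016 in males. The dim NM_008746 probe of Ntrk3 was 0.095 with normexp and 0.017 with slide as a block and on slide 1. The NM_019972 probe of Sort1 was -0.0014 in the deposited scores and -0.025 with slide as a block and on slide 1.

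Between UA and APP/PS1 vehicle, Bdnf was 0.094 with slide as a block and on slide 2, and -0.16 to 0.13 on leaving out an array. Ntf3 was -0.027 with sex as a covariate, -0.14 in males and -0.039 to 0.15 on leaving out an array. The brightest Ntrk2 probe was 0.047 with normexp, 0.0052 in the deposited scores, 0.016 before dye normalization, a setting added after seeing the data, and -0.039 to 0.025 on leaving out an array. The dim Ntrk3 probe was -0.086 with normexp. The NM_019972 probe of Sort1 was 0.0048 in the deposited scores, 0.091 with slide as a block and on slide 2, and -0.13 to 0.012 on leaving out an array.

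Between UA and WT, Bdnf was 0.022 with slide as a block, and the brightest Ntrk3 probe -0.0014 with slide as a random block. The dim Ntrk3 probe was 0.00934 with normexp and 0.15 with slide as a block, and the NM_019972 probe of Sort1 -0.012 in males. On leaving out an array, Ntf3 ran from -0.017 to 0.15, the brightest Ntrk3 probe from -0.036 to 0.058, its second NM_182809 probe from -0.041 to 0.066, its dim probe from -0.063 to 0.081 and the Sort1 probe from -0.074 to 0.056.

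Same-numbered arrays had correlations of deviations from -0.54 to 0.38 over probes. No differently numbered arrays were set beside them, so these values do not settle whether replicate numbers pair the mice. With the replicate block, Ntf3 in APP/PS1 vehicle against WT was 0.014, 0 members were called, and 391 of all probes passed there in place of 1401.

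Counts of all probes called between APP/PS1 vehicle and WT were 88 with slide as a block, 32 on slide 1, 288 in males, 454 with only those groups in the fit, 460 without the filter, 694 before dye normalization, 902 in the deposited scores, 2204 with normexp, 2271 with sex as a covariate, 2359 with slide as a random block and 459 to 2631 on leaving out an array. The share of higher calls was 56.0%, 67.7% with the percentile over probes detected on all arrays, 74.6% with normexp, 41.2% in the deposited scores and 72.8% before dye normalization. With normexp, 1991 probes were called between UA and APP/PS1 vehicle in place of 0, of which 2 belonged to activity-responsive genes and 0 to the 6 members. Only 5.37% of these 1991 were higher in UA mice. The median difference over all probes tested was -0.082 in that setting, against -0.0043 in the reported one. Between UA and WT the counts ran from 4 with slide as a block to 117 with slide as a random block, against 38.

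Of the 7 pathway genes that passed, Plcg2 and Igf1 passed in 25 of 28 settings each, Maged1 in 19, Mapk9 in 18, Mapk10 in 11, Sorcs3 in 10 and Vgf in 9, the reported setting included.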

Other observations

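The gap between the Ntrk2 probes was wider in APP/PS1 than in WT mice in both sexes as read from the arrays, with few females. In males it averaged 0.56 in 5 WT, 1.18 in 4 APP/PS1 vehicle and 0.99 in 5 UA mice. In females it was 0.21 in 1 WT mouse, averaged 0.94 in 3 APP/PS1 vehicle mice and was 0.70 in 1 UA mouse. Igf1, called between APP/PS1 vehicle and WT, stood 0.61 above WT in UA mice as well (SE 0.14, limma adjusted p = 0.139, which did not pass), with 6 of 6 mice above the WT mean. Cntfr, the receptor subunit of ciliary neurotrophic factor, was lower in UA than in APP/PS1 vehicle mice by a difference of -0.34 (SE 0.13, limma adjusted p = 0.239), and Vegfa, vascular endothelial growth factor A, by -0.22 (SE 0.084, adjusted p = 0.243), neither of which passed.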
